A study of Homo sapiens with 6 samples.

Results

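The genes described here are 45 genes of the NRF2 antioxidant and detoxification pathway, namely the transcription factor NRF2 (gene NFE2L2), its sensor KEAP1, their partners and the enzymes and transporters that NRF2 is known to induce. They were taken by symbol from the 40173 rows of a gene count table, by a rule that uses no measured value, and all 45 symbols were found. The list was, however, chosen with earlier results of these data known. Counts were high enough to test 39 of the 45 genes, among 15250 tested genes in all. The table holds RNA-Seq counts of cells labelled A549, a lung adenocarcinoma line, harvested a day after transfection with a negative control siRNA or with one targeting the long noncoding RNA FAM83H-AS1, and each group has 3 libraries. By the labels the groups differ in the siRNA alone, and the silenced group rests on 1 siRNA in 1 cell line. The labels do not say that the 3 libraries of a group came from separate cultures, so p-values measure the spread between these libraries, which may be technical.

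NRF2 is a basic leucine zipper transcription factor that is made continuously and, in unstressed cells, is held by KEAP1 for ubiquitination by a CUL3 ligase and destroyed by the proteasome. Oxidants and electrophiles modify cysteines of KEAP1, so that NRF2 accumulates, pairs with a small MAF protein and binds antioxidant response elements near genes for glutathione and thioredoxin metabolism, NADPH supply, quinone, carbonyl and heme detoxification and drug export. Lung adenocarcinomas often lose KEAP1 by mutation, and A549 is a standard model of this loss, in which NRF2 targets are known to be high without any stress.

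The silencing was checked first. FAM83H-AS1 had 141, 185 and 292 counts in control libraries 1, 2 and 3, and 47, 48 and 75 counts in silenced libraries 1, 2 and 3. Its level fell to 30.6% of control, from 15.9 ± 1.39 to 4.87 ± 0.617 CPM (counts relative to a fixed total, scaled to the TMM-normalized library size; SD, n = 3), with an edgeR log2 fold change of -1.70 (SE 0.148, Benjamini-Hochberg adjusted p = 7.99e-05). Library totals ranged from 9738291 to 17742643 counts. Control library 3 stood apart, since RNA5-8SP6, a pseudogene of ribosomal RNA, took 3.22% of its counts against 0.241% to 0.448% in the other 5 libraries.

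The profile did not match the A549 label in every respect. Of 8 markers of such a line, keratins KRT8 (1863 ± 199 CPM in control cells) and KRT18 (1316 ± 75.3 CPM) and vimentin, VIM (495 ± 21.9 CPM), were abundant. However, the epithelial genes KRT19 (0.944 CPM), EPCAM (3.86 CPM) and CDH1 (0.780 CPM) were low, surfactant protein gene SFTPB was at 0.0631 CPM, and CEACAM6 had 0 counts in all 6 libraries. A549 is known to carry a homozygous deletion that takes in CDKN2A, and in these control libraries CDKN2A was at 62.9 ± 10.4 CPM, with its neighbors CDKN2B at 13.4 ± 0.707 CPM and MTAP at 38.3 ± 0.844 CPM. These 3 genes were looked up after values had been seen. Among 15 markers of blood cells, fibroblasts, endothelium and neuroendocrine cells, COL1A1 was highest at 27.0 CPM in control cells, and CD3E, HBB and CHGA had 0 counts in every library. The identity of the cells was not tested, and whether KEAP1 is mutated cannot be read from gene counts. The cells are therefore called cells labelled A549.

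Antioxidant response elements have a published core, written TGACNNNGC with N for any base, and the members' promoters were searched for it to show which of them carry it close to a start site. RefSeq promoter windows (GRCh38.p14, 250 bases before to 50 bases after a gene's start) were found for 36 of the 45 members. The core was present on either strand in 12 of these 36 members (33.3%), and in 16.1% of all 27305 genes of the table with a window or 19.7% of the 9513 tested ones. With an A directly after the core, the count was 9 of 36 members (25.0%) and 4.07% of the tested genes. Sites of 6 members are shown, namely GSTP1, TXNRD1, PGD and PIR, which passed the threshold below (2 of the 3 sites of TXNRD1), and, as examples of the sensor and of glutathione synthesis, 1 of the 2 sites of KEAP1 and that of GCLM. They are read 5′ to 3′ on the strand named, with the core in capitals.
GSTP1, chr11:67583736-67583764, plus strand: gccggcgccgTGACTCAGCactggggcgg
TXNRD1, chr12:104215670-104215698, plus strand: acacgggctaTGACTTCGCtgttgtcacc
TXNRD1, chr12:104286920-104286948, minus strand: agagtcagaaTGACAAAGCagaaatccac
PGD, chr1:10398853-10398881, minus strand: agcacctagaTGACATTGCcccggcgagg
PIR, chrX:15493289-15493317, plus strand: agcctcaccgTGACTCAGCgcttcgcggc
KEAP1, chr19:10502784-10502812, plus strand: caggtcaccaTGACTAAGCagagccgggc
GCLM, chr1:93909446-93909474, plus strand: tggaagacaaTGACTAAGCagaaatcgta

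The center of the core lay 62 bases before the GSTP1 start and 30 bases before the GCLM start. In GSTP1 and PIR the core overlaps TGACTCA, the element bound by AP-1 factors, so the letters do not tell these elements apart. No window was found for HMOX1, AKR1B10, ALDH3A1 or ABCC3. A match describes the sequence and is not evidence of binding.

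In control cells the tested NRF2 pathway genes as a group were expressed at high levels, but not uniformly. The members were listed as genes known to be high in KEAP1-mutant A549. Their level therefore describes the list and is not a test of the pathway's activity. Members too low to test are left out of it. Levels were compared between genes as CPM per kilobase of merged exons. The 39 tested members had a median of 20.3 CPM per kilobase, against 5.57 for the 13239 tested genes with a length. Of the 39, 23 were in the top 25% of tested genes, 11 in the top 10% and 9 in the top 5%, while 6 were below the median of tested genes.

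The ferritin chains that store iron led the members, with FTH1, the heavy chain, at 1890 ± 161 CPM per kilobase and FTL, the light chain, at 1303 ± 83.0 (SD, n = 3). Below them came the aldose reductase AKR1B1 (373 ± 94.3), the glutathione transferase GSTP1 (193 ± 14.6), the autophagy receptor SQSTM1 (149 ± 6.09), thioredoxin, TXN (125 ± 10.9), and 6-phosphogluconate dehydrogenase, PGD (109 ± 4.05). In this order, the values of SQSTM1, TXN and PGD were separated by little more than their spread. Thioredoxin reductase TXNRD1 (73.6 ± 5.86), biliverdin reductase BLVRB (68.4 ± 11.5) and the quinone reductase NQO1 (58.8 ± 3.01) completed the highest 10, and neighbors among these 3 overlapped within 1 SD. The order depends on the length used: per kilobase of the longest transcript, SQSTM1 (381) stood above GSTP1 (219) and PGD (171) above TXN (164), and AKR1C3 (103) took the place of NQO1 (65.7) among the highest 10. NFE2L2 itself was at 10.9 ± 0.505 CPM per kilobase (percentile 67.4 of tested genes) and KEAP1 at 18.4 ± 1.69 (percentile 78.7). FTH1 and FTL have 25 and 16 annotated pseudogenes, TXN and AKR1B1 have 7 each, and how the counting treated reads that match several genes is not given in the sources used here.

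**Figure D1:**
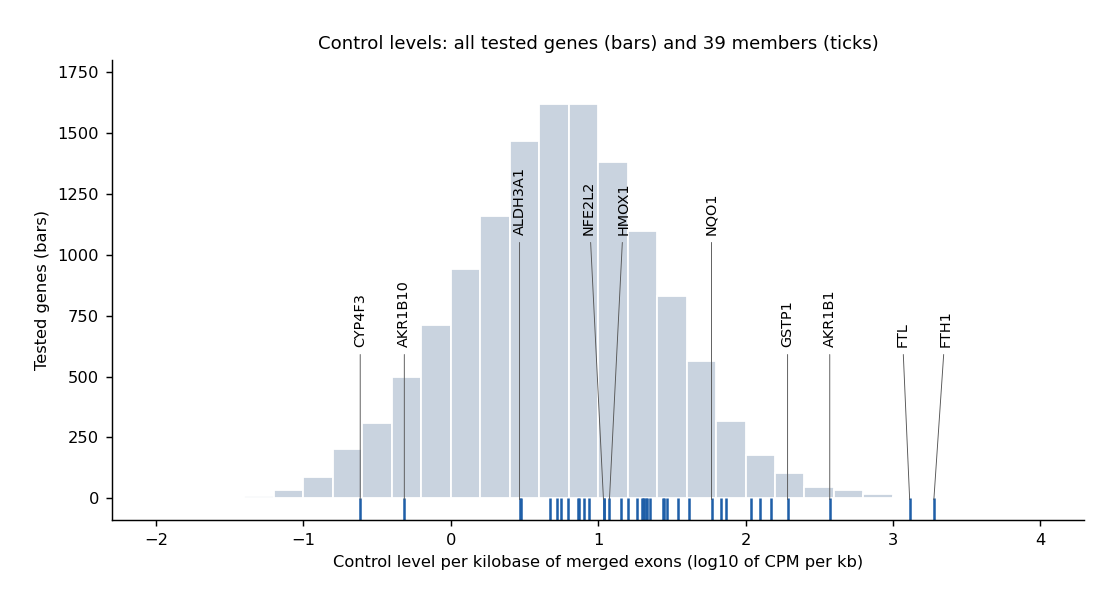
Control level per kilobase of merged exons (log10 of CPM per kb, x axis) for the tested genes with a length (bars, number of genes per bin) and for the 39 tested NRF2 pathway genes (ticks). The ferritin genes FTL and FTH1 lie at the far right, NFE2L2 and HMOX1 near the middle, and AKR1B10 and CYP4F3 at the left.

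At the other end, 6 members were too low to test, several of which are known as abundant in A549 or other KEAP1-mutant cells. The nuclear receptor gene NR0B1, the alcohol dehydrogenase ADH7 and the carboxylesterase CES1 had 0 counts in all 6 libraries. Over the 38976268 counts of the control libraries, a count of 0 allows a level of up to 0.0770 CPM. This limit covers counting error only. The retinal dehydrogenase ALDH1A1 had 0 counts in each control library and 0, 0 and 2 counts in silenced libraries 1, 2 and 3. The glutathione peroxidase GPX2 had 1, 3 and 0 counts in control cells and 0 in each silenced library. The fatty acid hydroxylase CYP4F11 had 0, 4 and 1 counts in control cells and 5, 9 and 6 in silenced cells. At these counts the 6 genes were not tested for a change. Of the tested members, AKR1B10 (0.484 ± 0.0431 CPM per kilobase) and CYP4F3 (0.243 ± 0.0783) were in the lowest 25% of tested genes. ALDH3A1 (2.93 ± 0.302), AKR1C2 (2.98 ± 1.09), GCLC (4.69 ± 0.209) and CBR3 (5.22 ± 0.889) were also below the median. Per kilobase of the longest transcript, GCLC was above the median (percentile 59.2).

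After FAM83H-AS1 silencing, NRF2 pathway genes changed in both directions. Heme oxygenase 1, HMOX1, rose to 190% of its control level, FTL, TXNRD1 and the exporters ABCC2 and ABCC3 rose by smaller factors, and AKR1B10 and CYP4F3 rose from very low levels. GSTP1 fell to 49.6% of control, and TXN, ALDH3A1, PIR and PGD fell less. NFE2L2, KEAP1 and the NRF2 targets NQO1, GCLC, GCLM and SRXN1 did not pass the threshold. In all, 5 of 39 tested members (12.8%) were lower and 7 (17.9%) higher at an edgeR adjusted p under 0.05, where 8.27% and 8.75% of all 15250 tested genes were lower and higher. The 7 higher members became 3 without silenced library 1, and at an adjusted p under 0.01 there were 3 in each direction.

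Since the members are more abundant than most genes, they were also set beside abundant genes. Among the 10002 tested genes at or above 10 CPM in control cells, 21.4% passed the threshold in either direction, and 10 of the 36 members at such levels (27.8%) did, 5 lower and 5 higher. The median log2 fold change of the 39 members was 0.07, against -0.00 over all tested genes, and the median absolute change was 0.20 in both. Of the members, 23 were above 0 and 16 below. A fold change over 2 together with the adjusted p was reached by 1 lower member, GSTP1 (0.997% of all tested genes), and by 2 higher members, AKR1B10 and CYP4F3 (1.14%). These are bulk libraries, so fewer cells that express a gene and less of its RNA per cell cannot be told apart.

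**Figure D2:**
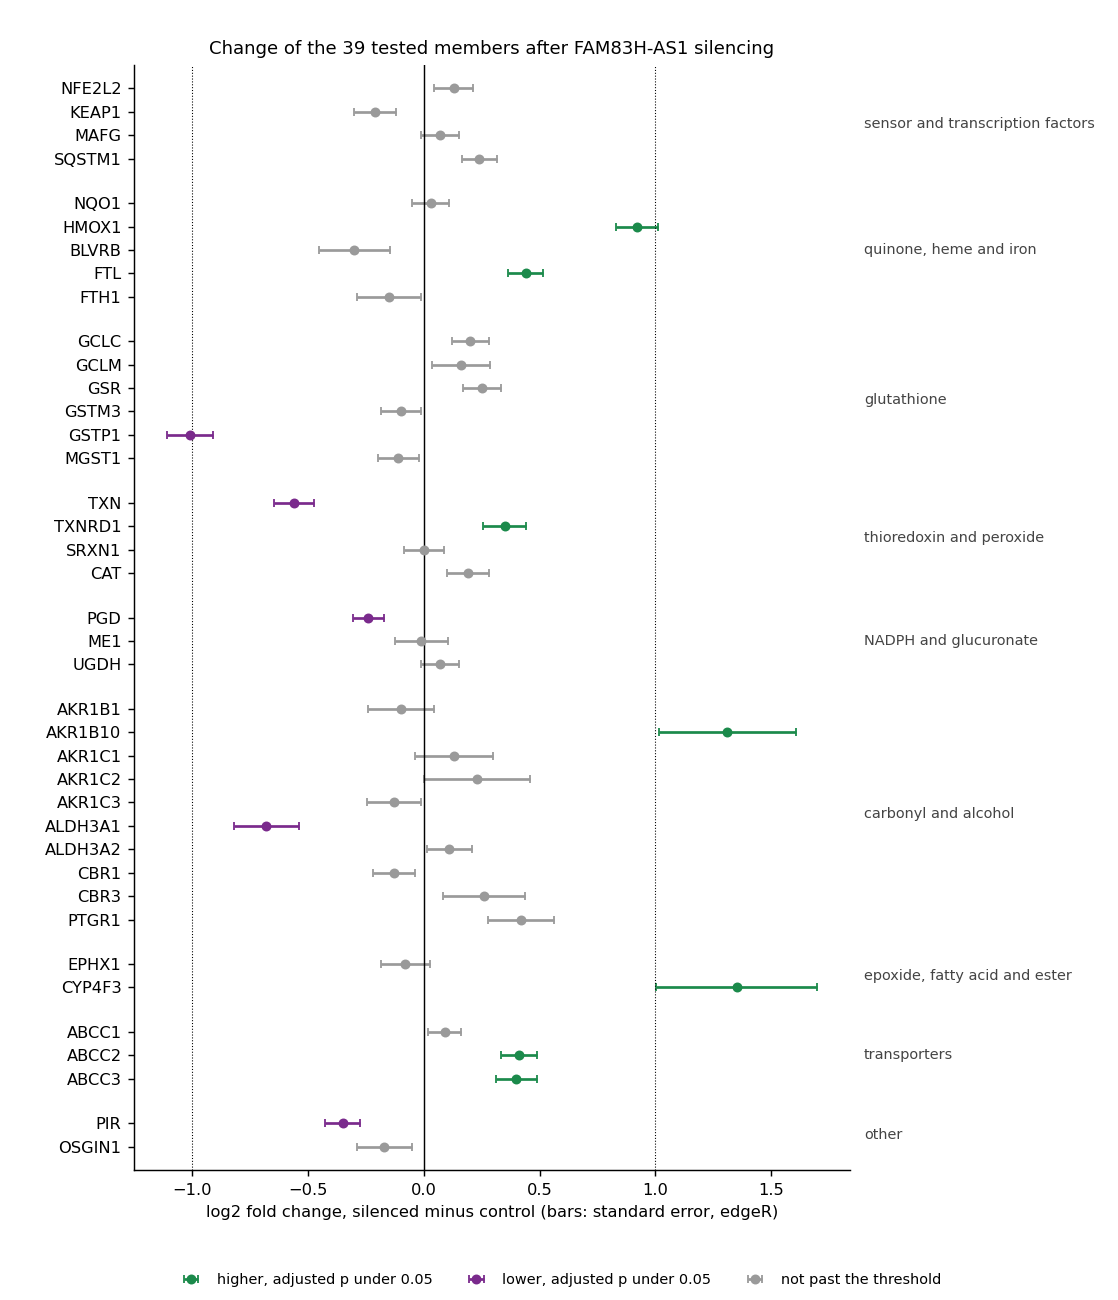
Log2 fold change of the 39 tested NRF2 pathway genes, silenced minus control (x axis, edgeR, bars are standard errors), grouped by role, with dotted lines at a fold change of 2. Of these, 7 were higher (green) and 5 lower (purple) at an adjusted p under 0.05, and the other members lay between -0.30 and 0.42.

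The sensor and its transcription factors were tested with 4 genes, none of which passed. NFE2L2 was at 62.9, 68.6 and 63.9 CPM in control libraries 1, 2 and 3 and at 67.5, 78.4 and 67.3 CPM in silenced libraries 1, 2 and 3. The groups overlapped, and the log2 fold change was 0.13 (SE 0.0845, edgeR adjusted p = 0.339). KEAP1 was at 76.4, 66.5 and 64.5 CPM in control and 60.9, 54.5 and 63.8 CPM in silenced libraries. Every silenced library was below every control library, but by less than the test required (log2 fold change -0.21, SE 0.0915, edgeR adjusted p = 0.144). SQSTM1, which binds KEAP1 and directs it to autophagy, was at 1183, 1143 and 1090 CPM in control and 1287, 1466 and 1280 CPM in silenced libraries. Here too the groups did not overlap, and the log2 fold change of 0.24 lay just outside the threshold (edgeR adjusted p = 0.0515). The small MAF partner MAFG was at 143 ± 12.7 CPM in control and 151 ± 5.57 CPM in silenced cells.

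Of the 5 quinone, heme and iron genes, 2 rose. HMOX1, which opens the heme ring and releases iron, is encoded at chr22:35380361-35394214 (GRCh38, plus strand). It was at 28.0, 27.4 and 30.5 CPM in the control libraries and 60.0, 52.9 and 50.6 CPM in the silenced ones. The groups were far apart, with means of 28.6 ± 1.66 and 54.5 ± 4.87 CPM, a log2 fold change of 0.92 (SE 0.0915) and an edgeR adjusted p of 0.000172. FTL rose from 1144 ± 72.9 to 1551 ± 92.1 CPM, a log2 fold change of 0.44 (SE 0.076, edgeR adjusted p = 0.00384). Its control libraries were at 1060, 1186 and 1186 CPM, and its silenced libraries at 1492, 1657 and 1504 CPM, without overlap.

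The heavy ferritin chain did not pass. FTH1 was at 4176, 3526 and 3808 CPM in control and 3555, 2639 and 4163 CPM in silenced libraries, and silenced library 2 was the lowest of all (log2 fold change -0.15, SE 0.137, edgeR adjusted p = 0.48). Without silenced library 2 the log2 fold change was 0.01. Whether FTL and FTH1 changed by different amounts was not tested. NQO1, which reduces quinones and is the most widely used NRF2 target, was at 184, 202 and 187 CPM in control and 183, 213 and 188 CPM in silenced libraries. These groups overlapped closely, with a log2 fold change of 0.03 (SE 0.079, edgeR adjusted p = 0.856). BLVRB, which acts on the product of heme breakdown, was at 115 ± 19.3 CPM in control and 93.7 ± 21.3 CPM in silenced cells.

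**Figure D3:**
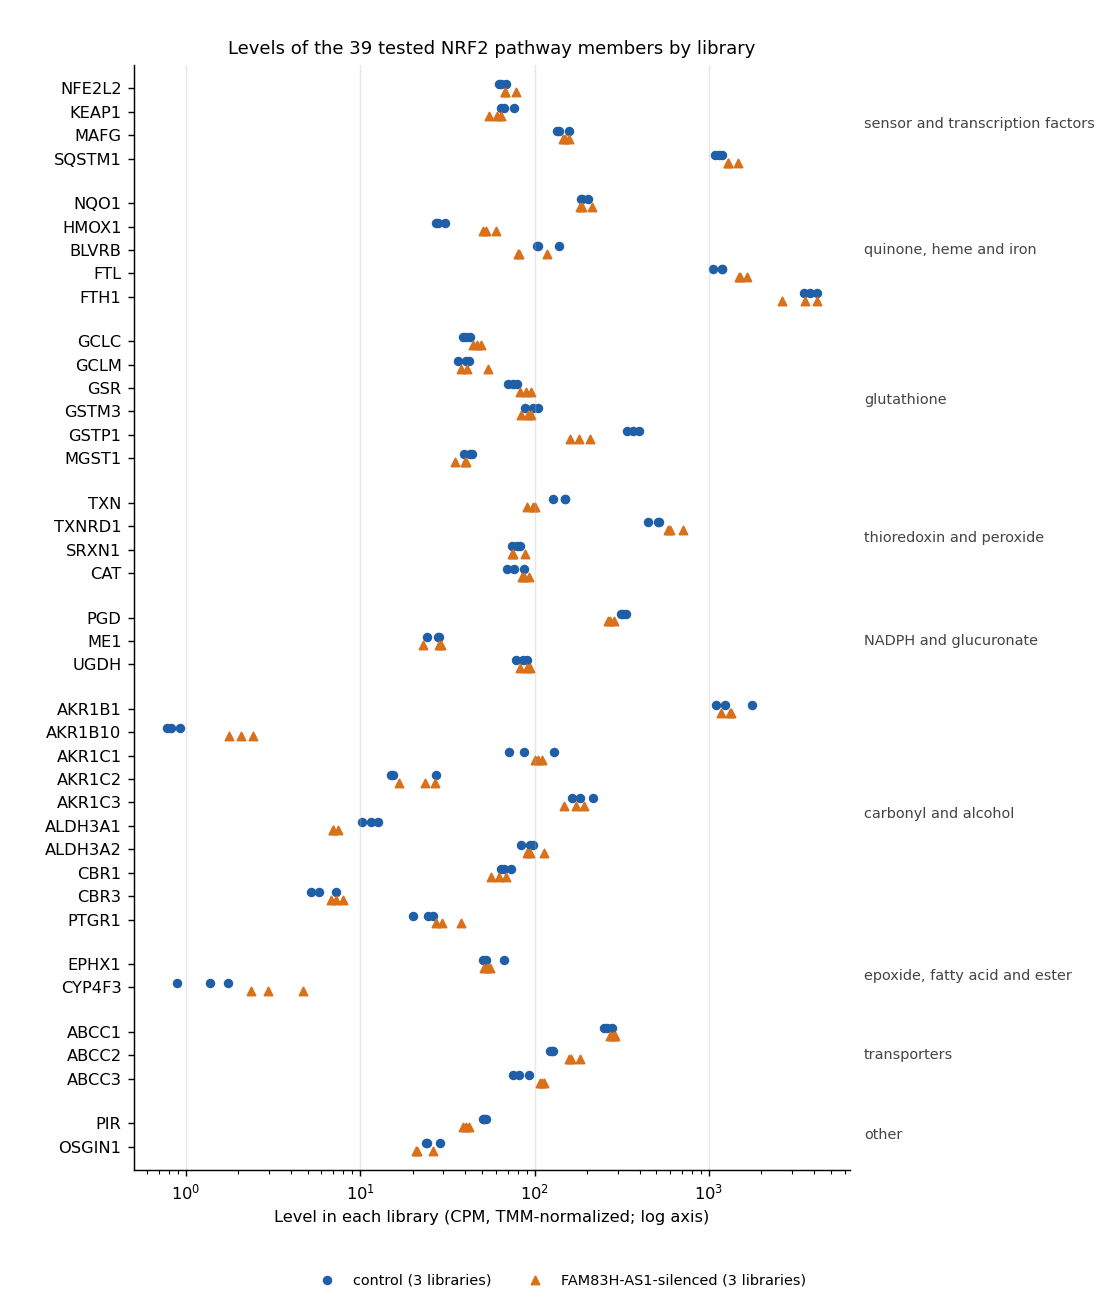
Level of the 39 tested NRF2 pathway genes in each library (CPM, log x axis), grouped by role, with the 3 control libraries as blue circles and the 3 silenced libraries as orange triangles. The groups are apart for HMOX1, FTL and GSTP1, and they overlap for NQO1, FTH1 and AKR1C1.

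In glutathione metabolism, 1 of 6 tested genes fell and none rose. GSTP1, which conjugates glutathione to electrophiles and is encoded at chr11:67583595-67586656 (GRCh38, plus strand), was at 368, 340 and 396 CPM in control and 181, 159 and 208 CPM in silenced libraries. The highest silenced library was well below the lowest control library. The mean fell from 368 ± 27.9 to 182 ± 24.8 CPM, with a log2 fold change of -1.01 (SE 0.0998) and an edgeR adjusted p of 0.000168. The change was -0.96 without control library 3, the library rich in RNA5-8SP6.

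The subunits of glutamate-cysteine ligase, which makes the rate-limiting step of glutathione synthesis, were slightly higher but did not pass. The catalytic subunit GCLC was at 40.5, 38.8 and 42.4 CPM in control and 49.0, 46.6 and 44.3 CPM in silenced libraries, without overlap (log2 fold change 0.20, SE 0.08, edgeR adjusted p = 0.114). For the modifier subunit GCLM the values were 36.6, 41.9 and 40.3 CPM against 41.2, 54.2 and 37.9 CPM, with overlap (log2 fold change 0.16, edgeR adjusted p = 0.406). GCLM was high in silenced library 2 alone, and without that library the log2 fold change was -0.01. Glutathione reductase, GSR, was at 74.8 ± 4.28 CPM in control and 89.0 ± 6.62 CPM in silenced cells, without overlap and not past the threshold (edgeR adjusted p = 0.0611). The transferases GSTM3 and MGST1 had log2 fold changes of -0.10 and -0.11, with overlapping groups.

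Thioredoxin and its reductase changed in opposite directions. TXN, the small redox protein that reduces disulfides, was at 149, 150 and 128 CPM in control and 90.5, 97.7 and 100 CPM in silenced libraries. The mean fell from 142 ± 12.4 to 96.2 ± 5.12 CPM without overlap of the groups (log2 fold change -0.56, SE 0.0845, edgeR adjusted p = 0.00183). TXNRD1, the selenoenzyme that returns thioredoxin to its reduced form, was at 448, 519 and 513 CPM in control and 596, 714 and 581 CPM in silenced libraries. It rose from 494 ± 39.3 to 630 ± 72.7 CPM, again without overlap (log2 fold change 0.35, SE 0.0927, edgeR adjusted p = 0.0256). This call was lost without control library 1 (edgeR adjusted p = 0.0814), silenced library 1 (0.0555) or silenced library 2 (0.0731). Sulfiredoxin, SRXN1, which repairs overoxidized peroxiredoxins, was at 73.8, 79.6 and 82.8 CPM in control and 73.9, 87.7 and 75.7 CPM in silenced libraries. Its groups overlapped, with a log2 fold change of 0.00 (edgeR adjusted p = 0.982). Catalase, CAT, had a log2 fold change of 0.19 (edgeR adjusted p = 0.177).

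Among 3 genes of NADPH and glucuronate supply, PGD, an NADPH-making enzyme, was lower. It was at 321, 336 and 312 CPM in control and 263, 284 and 271 CPM in silenced libraries, without overlap. The difference was small, with a log2 fold change of -0.24 (SE 0.0672, edgeR adjusted p = 0.0318). The call was lost with library size only (log2 fold change -0.21, edgeR adjusted p = 0.0763) and without control library 1 (0.0572), control library 2 (0.103), silenced library 1 (0.138) or silenced library 3 (0.077). Malic enzyme ME1 and UDP-glucose dehydrogenase UGDH had log2 fold changes of -0.01 and 0.07.

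Of 10 tested carbonyl and alcohol enzymes, 1 fell and 1 rose, both among the least abundant members. ALDH3A1, an aldehyde dehydrogenase of aldehydes from lipid peroxidation, was at 12.6, 10.3 and 11.5 CPM in control and 7.03, 6.94 and 7.43 CPM in silenced libraries. It fell from 11.5 ± 1.18 to 7.13 ± 0.264 CPM without overlap (log2 fold change -0.68, SE 0.141, edgeR adjusted p = 0.00918). AKR1B10, a reductase of retinal and other aldehydes, had 9, 9 and 14 counts in control and 25, 19 and 28 counts in silenced libraries. It rose from 0.843 ± 0.0752 to 2.09 ± 0.342 CPM (log2 fold change 1.31, SE 0.296, edgeR adjusted p = 0.0135). This call rests on few reads and was lost without silenced library 1 (log2 fold change 1.19, edgeR adjusted p = 0.0671).

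The aldo-keto reductases AKR1C1, AKR1C2 and AKR1C3, which reduce steroids and carbonyls and lie side by side between bases 4963253 and 5107686 of chromosome 10 (GRCh38), did not pass. Their coding sequences are close enough that short reads can be shared. AKR1C1 and AKR1C2 differ at 19 of 972 coding bases (98.0% identity) and share an identical run of 189 bases, and AKR1C3 is 91.9% and 91.3% identical to them. Coding bases 111 to 140 of the GENCODE 29 transcripts are shown. Among stretches of this length they had the most differences between AKR1C1 and AKR1C2, which is not typical of the whole. AKR1C3 was not used to choose the stretch. Capitals mark the positions where the 3 genes are not all the same.
AKR1C1: cACCaaattGgcaatTgaagcTggCttccG
AKR1C2: cGTCaaattGgcaatAgaagcCggGttccA
AKR1C3: cACAaaattAgcaatAgaagcTggGttccG

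In this window AKR1C2 differs from AKR1C1 at 6 bases and AKR1C3 from AKR1C1 at 4. AKR1C1 was at 130, 87.3 and 71.7 CPM in control and 110, 100 and 105 CPM in silenced libraries. AKR1C2 was at 27.3, 15.4 and 15.0 CPM in control and 26.8, 23.6 and 16.6 CPM in silenced libraries. AKR1C3 was at 215, 182 and 163 CPM in control and 172, 192 and 147 CPM in silenced libraries. In all 3 genes control library 1 was the highest of the controls, and the groups overlapped. The log2 fold changes were 0.13, 0.23 and -0.13 (edgeR adjusted p = 0.622, 0.537 and 0.461). Given the shared sequence, the split between them is uncertain, and their sum was 302 ± 63.6 CPM in control and 297 ± 25.7 CPM in silenced cells. The result for AKR1C1 turned on the control libraries, since its log2 fold change was 0.41 without control library 1 (edgeR adjusted p = 0.0287) and -0.05 without control library 3.

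Several members varied more than most among control libraries. The coefficient of variation over the 3 control libraries was 36.5% for AKR1C2, 32.3% for CYP4F3, which has few counts, 31.3% for AKR1C1, 25.3% for AKR1B1 and 14.3% for AKR1C3, against a median of 8.42% for the members and 9.43% for all tested genes. These are not all the variable members. Relative to their means, CBR3 (6.10 ± 1.04 CPM in control cells), BLVRB (115 ± 19.3 CPM) and EPHX1 (56.8 ± 9.12 CPM) varied more than AKR1C3. AKR1B1 was at 1757, 1236 and 1103 CPM in control and 1325, 1172 and 1337 CPM in silenced libraries. Control library 1 was the highest control for it as well, and it was so for 18 of the 39 members (46.2%), against 35.2% of all tested genes. Of the other carbonyl enzymes, the prostaglandin reductase PTGR1 had the largest difference that did not pass (23.6 ± 3.25 CPM in control, 31.4 ± 5.63 CPM in silenced cells, edgeR adjusted p = 0.0657). CBR1, CBR3 and ALDH3A2 had log2 fold changes of -0.13, 0.26 and 0.11.

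Of the epoxide and fatty acid enzymes, CYP4F3, which hydroxylates leukotriene B4 and long-chain fatty acids, rose from a low level. It had 17, 16 and 15 counts in control and 48, 32 and 32 counts in silenced libraries. The mean rose from 1.34 ± 0.432 to 3.34 ± 1.20 CPM (log2 fold change 1.35, SE 0.348, edgeR adjusted p = 0.0236). The call was lost without control library 2 (0.0611), control library 3 (0.0772) or silenced library 1 (0.108). Its coding sequence is 88.8% identical to that of CYP4F11, the untested member named above, which had 5 counts in all control and 20 in all silenced libraries. Epoxide hydrolase EPHX1 had a log2 fold change of -0.08.

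Of 3 multidrug exporters, 2 rose. ABCC2, which exports glutathione, glucuronide and bilirubin conjugates, was at 122, 126 and 128 CPM in control and 162, 183 and 157 CPM in silenced libraries. The control libraries were within a few CPM of each other and all silenced libraries lay above them, with means of 126 ± 2.83 and 167 ± 13.9 CPM (log2 fold change 0.41, SE 0.0776, edgeR adjusted p = 0.00598). ABCC3, which exports bile acids and glucuronides, was at 75.6, 81.6 and 93.1 CPM in control and 113, 107 and 111 CPM in silenced libraries. Its mean rose from 83.4 ± 8.92 to 110 ± 3.13 CPM (log2 fold change 0.40, SE 0.0868, edgeR adjusted p = 0.0112), a call lost without silenced library 1 (0.0544). ABCC1, the most abundant of the 3 per kilobase, was at 263 ± 14.9 CPM in control and 280 ± 8.83 CPM in silenced cells, with overlap (log2 fold change 0.09).

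The remaining members are PIR and OSGIN1. Pirin, PIR, an iron-binding nuclear protein, was at 50.9, 51.2 and 52.4 CPM in control and 42.3, 40.4 and 38.7 CPM in silenced libraries. Its libraries lay close together within each group, and it fell from 51.5 ± 0.785 to 40.4 ± 1.81 CPM without overlap (log2 fold change -0.35, SE 0.0756, edgeR adjusted p = 0.0109). OSGIN1, an oxidative stress-induced growth inhibitor, had a log2 fold change of -0.17, with overlapping groups. Over all 39 members, the groups did not overlap in 6 with silenced lower (15.4%, against 17.5% of all tested genes) and in 11 with silenced higher (28.2%, against 19.1%).

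**Figure D4:**
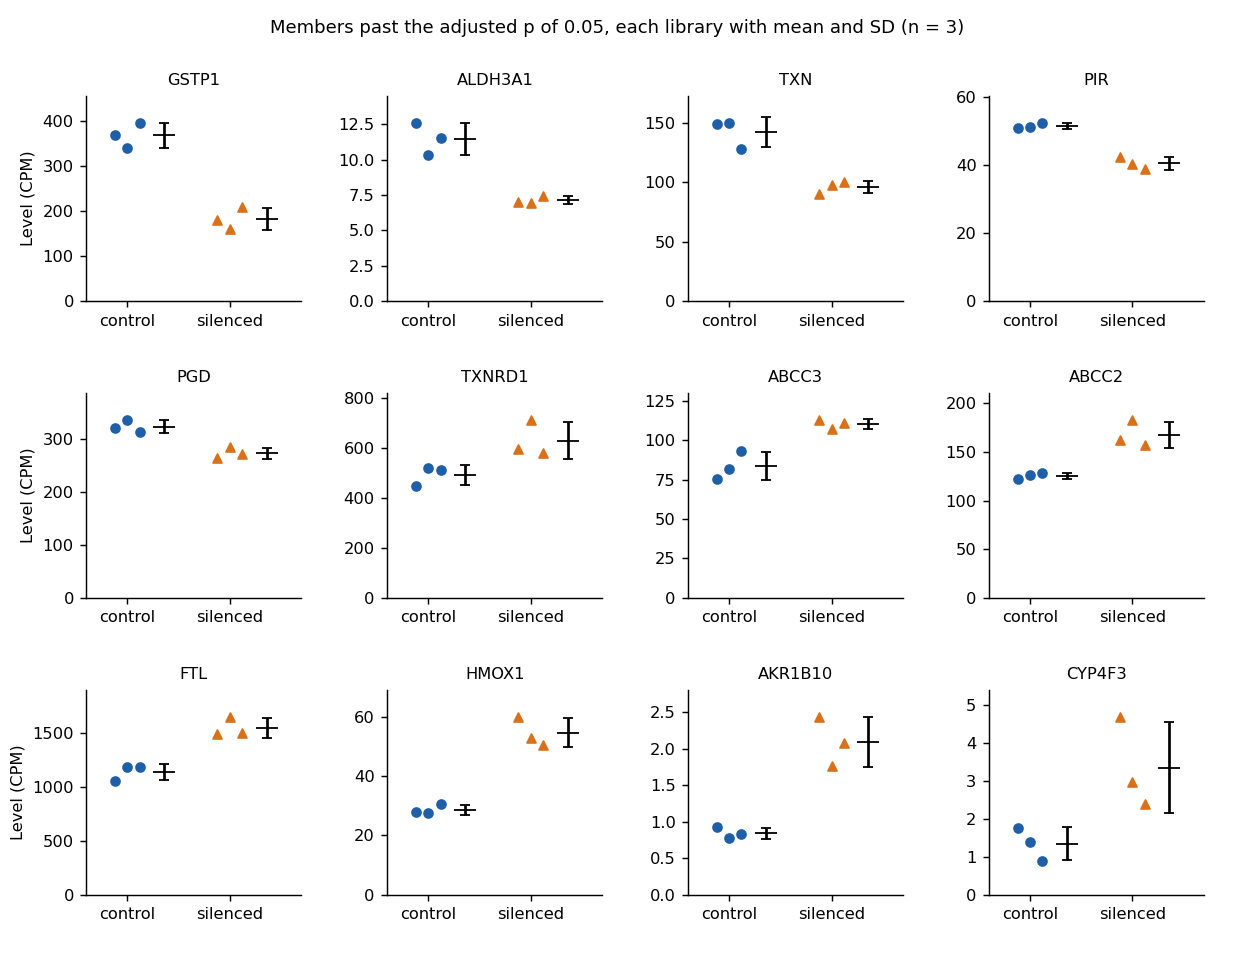
The 12 NRF2 pathway genes past an adjusted p of 0.05, each in its own panel with CPM on a y axis that starts at 0. Circles and triangles are the 3 control and 3 silenced libraries, with mean and SD beside them. In every panel the groups are apart, from 2.09 CPM in silenced cells for AKR1B10 to 1551 CPM for FTL.

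The 2 sequence features searched each occurred among both lower and higher members. Of the 12 changed members, HMOX1, AKR1B10, ALDH3A1 and ABCC3 had no promoter window to search. The antioxidant response element core was found in the windows of GSTP1, PGD and PIR, which were lower, and of TXNRD1, which was higher. The windows of TXN, which was lower, and of FTL, ABCC2 and CYP4F3, which were higher, did not hold these letters. The 3′ UTRs were also searched for CCAATAA, a word picked earlier on these same data because genes with it were often lower, so its count is a description only. It occurred in an annotated 3′ UTR of 6 of 39 tested members (15.4%) and of 14.2% of 11591 tested genes. It was in 2 of the 5 lower members, GSTP1 and ALDH3A1, and in 1 of the 7 higher ones, CYP4F3. Of all lower genes with a 3′ UTR, 32.0% held it. These stretches of GENCODE 29 transcripts show the word in capitals.
GSTP1: tttctccaggaCCAATAAaatttctaaga
ALDH3A1: ccctttctagaCCAATAAagagacgaata
CYP4F3: acattttttccCCAATAAtttttggctat

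In GSTP1 the word starts at base 53 of a 3′ UTR of 79 bases. With the base that follows it, it contains AATAAA, the letters of the common polyadenylation signal, in GSTP1 and ALDH3A1 but not in CYP4F3.

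A further list of 54 regulators, targets and enzymes of the same metabolism, none of them members, also held genes that changed in both directions. Of these, 53 were in the table and 50 were tested. At an edgeR adjusted p under 0.05, 7 were lower and 6 higher, where 8.27% and 8.75% of all tested genes were. Among tested genes at or above 10 CPM in control cells, where most of this list lies, 11.2% were lower and 10.3% higher. The counts were not tested against these shares. The 6 higher became 2 without control library 1, control library 2 or silenced library 1, and 3 without silenced library 3, and the 7 lower became 4 without silenced library 1. SOD1, the cytosolic superoxide dismutase, fell from 215 ± 10.4 to 135 ± 34.2 CPM (log2 fold change -0.67, edgeR adjusted p = 0.0104), while SOD2, its mitochondrial counterpart, rose from 56.3 ± 6.19 to 72.8 ± 5.39 CPM (log2 fold change 0.37, edgeR adjusted p = 0.0232). The SOD2 call was lost without control library 1 (0.0749), control library 2 (0.0805), silenced library 1 (0.0571) or silenced library 3 (0.0801).

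The related factor NFE2L3 rose from a low level, 2.78 ± 0.283 to 4.55 ± 0.480 CPM (log2 fold change 0.70, edgeR adjusted p = 0.0421). This call was lost with any library left out (edgeR adjusted p = 0.069 to 0.126), with DESeq2 (0.107) and with all genes of at least 1 count (0.0577). TRIM16L and TRIM16, a pair of close copies that may share reads, rose with log2 fold changes of 0.56 (edgeR adjusted p = 0.00106) and 0.48 (0.00341), and the heme transporter SLC48A1 with 0.30 (0.0264). The SLC48A1 call was lost without control library 1 (0.0794), control library 2 (0.0804), silenced library 1 (0.108) or silenced library 2 (0.0551). The mitochondrial phosphatase PGAM5, a KEAP1 partner, fell by 0.47 on the log2 scale (edgeR adjusted p = 0.0083), the lipoprotein receptor LRP8 by 0.42 (0.00404), and the aldehyde reductase AKR7A2 by 0.34 (0.0446). The AKR7A2 call was lost with library size only (0.0699), with thinned counts (0.0595), and without control library 1 (0.135), control library 2 (0.06), silenced library 1 (0.111) or silenced library 2 (0.127). Outside the naming rule, and chosen after their values were seen, are DPP3, which binds KEAP1, and peroxiredoxin PRDX1, both lower with log2 fold changes of -0.28 and -0.26, and the porphyrin transporter ABCB6, higher at 0.30.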

How the data were processed

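RNA was taken from cells labelled A549 after transfection, and libraries were made with an Ion Proton RNA-Seq kit (3 control, 3 silenced). The authors counted mapped reads per gene with MapSplice, and the deposited values are whole counts without normalization. The submitters' processing notes name GRCh37. The version, strand setting, annotation and treatment of reads with several matches are not given in the sources used here.

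Counts of all 6 libraries were fitted in R 4.3.3 with edgeR 4.0.16 (filterByExpr, TMM, quasi-likelihood F test), without covariates, and p-values were adjusted by the Benjamini-Hochberg method over 15250 genes. The standard error of a log2 fold change was taken as its size over the square root of F. A two-sided exact permutation test cannot go below 0.1 with 3 against 3 libraries. A fold change over 2 with an adjusted p under 0.05 (the rate in the study's methods) was counted as well, and under 0.01 (the rate in its results) as an alternative. Library totals were 9738291, 11495334 and 17742643 counts in control and 10102704, 10588505 and 13513170 in silenced libraries 1, 2 and 3. TMM factors ranged from 0.955 to 1.02. Chi-square per degree of freedom was at least 3.92 for every pair of replicates, above counting noise. Gene lengths, transcripts and positions came from GENCODE 29 on GRCh38, matched by symbol, and promoters from RefSeq on GRCh38.p14. No coordinates of the count table were used.

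The members, the further pathway list, the tests and the markers were chosen with earlier results of these data known. Named were 17 set members, every other member past the threshold, past a fold change of 2 or below the filter, FAM83H-AS1, and at most 10 further pathway genes past the threshold by size of change. A further pathway gene that the rule also names is not reported here. Alternatives were an adjusted p under 0.01, DESeq2 1.42.0, thinned counts, scaling by RLE or by library size only, keeping genes with 1 or more counts or with 10 or more in every library, a replicate block, and each library left out in turn. On simulated counts for this comparison (15250 genes, 200 changed), edgeR recovered 194 with 7 false calls and DESeq2 194 with 6. Every changed gene was given a fold change of 2, and the scarcest genes were not among those changed. Each simulated gene was given the spread usual at its abundance, so genes that vary more than others of like abundance were not simulated. Recovery of smaller changes or of scarce genes was not simulated either, nor was a library that stands apart. The numbers recovered do not cover any of these cases. Python 3.11.15 was used for the rest.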

Additional observations from a re-analysis of the deposited data

How the results depend on the processing

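The count of lower members was 5 and that of higher members 7, and at an adjusted p under 0.01 both were 3. With DESeq2, RLE size factors, library size only, at least 1 count, at least 10 counts in every library, thinned counts and the replicate block, both counts kept within 1.5 times these values. Leaving out 1 library at a time gave 4 to 5 lower and 3 to 8 higher members, with 3 higher without silenced library 1. Members past a fold change of 2 numbered 3, 1 at an adjusted p under 0.01, and 1 to 3 with a library left out (1 without control library 3 or silenced library 1). Of the further pathway genes, 7 lower and 6 higher became 3 and 2 at an adjusted p under 0.01. With a library left out they numbered 4 to 7 lower (4 without silenced library 1) and 2 to 5 higher (2 without control library 1, control library 2 or silenced library 1, and 3 without silenced library 3). With a library left out, the median log2 fold change of the members (0.07) ranged from 0.01 (without silenced library 2) to 0.10, the median control level (78.8 CPM) from 78.2 to 81.2 CPM, and the log2 fold change of FAM83H-AS1 (-1.70) from -1.82 to -1.64. With library size only these medians were 0.11 and 77.6 CPM, and with thinned counts FAM83H-AS1 was at -1.86. Among the members named by the rule, changes of sign with a library left out or under another setting occurred in those near 0. The other members were not examined for such changes. NQO1 ranged from -0.04 to 0.07 (-0.00 without control library 1), GCLM from -0.01 to 0.27, SRXN1 from -0.08 to 0.05 (-0.04 without control library 1, -0.01 with all genes of at least 1 count, -0.00 with thinned counts), AKR1C1 from -0.05 to 0.41 and FTH1 from -0.31 to 0.01. The cause of these moves was not tested. HMOX1 (0.85 to 0.97), GSTP1 (-1.12 to -0.92), TXN (-0.64 to -0.52) and FTL (0.39 to 0.47) kept sign and call with any library left out. So did ALDH3A1 (-0.76 to -0.62), ABCC2 (0.34 to 0.45) and PIR (-0.38 to -0.32).

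The labels do not say whether control and silenced libraries with the same replicate number were paired, and the main fit treated them as unpaired. To look for pairing, the deviations of each library's log2 CPM from its own group mean were correlated over genes between control and silenced libraries. Between same-numbered libraries, the correlations of these deviations were low, at 0.124, 0.149 and 0.067. Even so, the deviations of each library correlated best with those of its own number. Whether they were paired was not tested. With the number as a block, 5 members were lower and 10 higher, and 8 and 7 of the further pathway genes. Depth limits the members with few reads, AKR1B10, CYP4F3 and the 6 below the filter.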
